A study of Mus musculus with 22 samples.

Results

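The regions described here are 3651 of 177956 accessible DNA windows (2.05%) that gave more ATAC-seq reads in both subsets of type 2 conventional dendritic cells (cDC2s) than in type 1 conventional dendritic cells (cDC1s) of the mouse spleen. ATAC-seq measures how often a transposase can cut and tag the DNA of a nucleus, and each window is 150 bases around the summit of a peak of such cuts. CPM is the usual depth-scaled read count, here the reads in a window relative to all reads in windows of that library. Windows were chosen by these ATAC-seq values. A window was kept when all 4 cDC2 libraries were at 3 CPM or more, when the lowest of them was at least 1.5 times the higher cDC1 library, and when the means of the cDC2 subsets differed by less than 1.5-fold. The accessibility of all 6 ATAC-seq libraries was therefore used to choose the windows, so those values are given below as a description with no test, and the RNA-seq libraries are the independent measure. Some chosen windows overlap and share reads, 272 of them in 133 joined regions, which leaves 3512 distinct regions.

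All libraries came from Tbx21RFP-cre mice, which carry a red fluorescent reporter with Cre at the locus of T-bet (Tbx21), so every group, cDC1s included, carries the same allele and no group has another treatment. Mice were 6 to 10 weeks old, males and females. Cells were sorted as lineage-, CD64-, Ly6C-, CD11c+ and MHCII+, and then as CD11b- XCR1+ cDC1s or as CD11b+ XCR1- cDC2s that were RFP+ (T-bet+) or RFP- (T-bet-). ATAC-seq was done on spleen cells, 2 libraries per subset. RNA-seq was done on the same subsets from spleen (3 libraries per subset) and from mesenteric lymph node (MLN; 3 cDC1 libraries, 2 of T-bet+ and 2 of T-bet- cDC2s). The labels give pooled organs and the study's methods call the samples biological replicates from pooled mice, so p-values measure the spread between such pools and not between single animals. A reporter sort also means that a difference between T-bet+ and T-bet- cells rests on a gate on RFP.

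Conventional dendritic cells take up antigen and show it to T cells. cDC1s depend on the factors IRF8 and BATF3 and are known for cross-presentation to CD8+ T cells, whereas cDC2s carry SIRPα and CD11b, are known for priming CD4+ T cells, and use factors such as IRF4, RELB, ZEB2 and NOTCH2. Open DNA away from gene starts often marks enhancers, where transcription factors that recognise short sequence motifs bind, while open DNA at gene starts is shared by many cell types.

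The labels matched the defining transcripts. The summed RNA level of Xcr1, Clec9a, Cadm1, Tlr3, Batf3 and Irf8 was 4764 to 5848 normalized CPM in spleen cDC1s and 141 to 565 in spleen cDC2s, that of Sirpa, Itgam, Clec4a4 and Irf4 was 14.3 to 22.1 against 930 to 1829, and that of Tbx21 and Dtx1 was 313 to 338 in T-bet+ against 6.20 to 10.6 in T-bet- cDC2s. Depth was 7270164 to 10081555 reads in windows per ATAC-seq library and 20993220 to 29006549 reads on genes per RNA-seq library. The spleen RNA-seq libraries fell into 2 kinds that cross the groups. GC content is here that of the most GC-rich short stretch of the gene's longest transcript, not of the whole gene. In T-bet- replicates 1 and 2 and in cDC1 replicate 3, gene levels fell with this GC content (Spearman's rho -0.46 to -0.30 across 7703 genes of each library, against the mean of all libraries). In the other 6 they rose with it (0.19 to 0.32). The MLN libraries split likewise, with values of 0.21 to 0.25 in T-bet- replicate 2 and 2 cDC1 libraries (replicates 2 and 3) and of -0.32 to -0.03 in the other 4, which include all T-bet+ libraries.

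Printed here are 8 of the 10 windows with the highest ratio of the lowest cDC2 to the higher cDC1 library, since these are the clearest members. A window that overlaps the one at Ankrd55 and one in Pdgfrb, described below, are not printed. The windows of highest ratio among the markers (Clec4a3, 5.65) and the regulators (Runx3, 5.49) of cDC2s follow, although their ratios are lower. The sequences are the plus strand of GRCm38 (mm10), with capitals over every match to the motifs counted below, which for these windows are TTGCNNAA (C/EBP), GGAANNGAA (ETS-IRF), GAGGAAGT (PU.1), TGTGGTT (Runx), CCACNCCC (KLF), CAGCTG (E-box), TGANTCA (AP-1) and CCAAT (NF-Y), each on either strand. The first lies between genes upstream of Fam43a and the next between genes upstream of Ankrd55. The third lies in an intron of another annotated transcript upstream of Bhlhe40, and the fourth between genes beyond Ctcfl. The fifth lies between annotated genes, in DNA empty only of coding genes (named Zeb2 desert below), where the nearest coding gene is Zeb2. The sixth lies in an intron of Samd13, the seventh between genes near Ccdc186 and the next deep in an intron of Rad51b. The ninth lies between Clec4a3 and its neighbours and the last between genes upstream of Runx3. The windows of Ccdc186 and Runx3 hold none of the 27 motifs.
Fam43a, chr16:30596333-30596482: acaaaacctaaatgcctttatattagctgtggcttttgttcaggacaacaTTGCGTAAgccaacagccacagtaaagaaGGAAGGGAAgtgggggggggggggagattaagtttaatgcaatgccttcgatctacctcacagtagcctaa
Ankrd55, chr13:112258532-112258681: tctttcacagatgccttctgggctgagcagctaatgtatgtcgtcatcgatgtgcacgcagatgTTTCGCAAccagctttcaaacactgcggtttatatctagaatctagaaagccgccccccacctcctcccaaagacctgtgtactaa
Bhlhe40, chr6:108630837-108630986: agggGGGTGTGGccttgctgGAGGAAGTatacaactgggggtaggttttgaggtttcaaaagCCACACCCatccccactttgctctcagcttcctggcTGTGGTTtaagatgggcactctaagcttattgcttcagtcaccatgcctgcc
Ctcfl, chr2:173073053-173073202: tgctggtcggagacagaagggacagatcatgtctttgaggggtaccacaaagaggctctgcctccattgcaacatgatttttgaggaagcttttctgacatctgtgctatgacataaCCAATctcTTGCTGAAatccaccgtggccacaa
Zeb2 desert, chr2:45236279-45236428: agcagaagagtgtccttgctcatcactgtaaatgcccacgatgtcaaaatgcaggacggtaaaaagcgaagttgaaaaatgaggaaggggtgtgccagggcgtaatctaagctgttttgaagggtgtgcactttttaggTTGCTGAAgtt
Samd13, chr3:146658365-146658514: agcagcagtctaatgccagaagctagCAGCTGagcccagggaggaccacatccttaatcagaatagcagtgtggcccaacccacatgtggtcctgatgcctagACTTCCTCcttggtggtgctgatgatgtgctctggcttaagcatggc
Ccdc186, chr19:56772219-56772368: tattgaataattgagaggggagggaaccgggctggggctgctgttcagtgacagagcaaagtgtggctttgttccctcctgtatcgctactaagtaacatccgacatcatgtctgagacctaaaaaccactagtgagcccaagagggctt
Rad51b, chr12:79613900-79614049: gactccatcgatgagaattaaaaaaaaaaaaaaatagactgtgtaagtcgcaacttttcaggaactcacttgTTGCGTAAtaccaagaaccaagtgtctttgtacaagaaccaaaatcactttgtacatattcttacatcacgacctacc
Clec4a3, chr6:122972847-122972996: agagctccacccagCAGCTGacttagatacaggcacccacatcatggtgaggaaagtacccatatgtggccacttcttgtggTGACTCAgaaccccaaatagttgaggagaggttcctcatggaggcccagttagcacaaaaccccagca
Runx3, chr4:135080472-135080621: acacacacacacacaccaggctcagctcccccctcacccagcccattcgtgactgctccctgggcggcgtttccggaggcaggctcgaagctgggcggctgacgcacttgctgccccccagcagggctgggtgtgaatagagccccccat

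These windows were not closed in cDC1s. The median of the windows' mean CPM was 3.41 in cDC1s, which is above the median of all 177956 windows in cDC1s (2.67), and 62.1% of the chosen windows were above that median. The higher cDC1 library was at 3 CPM or more in 2324 windows (63.7%), below 1 CPM in 62 (1.70%) and at 3 reads or fewer in 3. In cDC2s the median was 10.2 CPM, against 2.16 over all windows. The set is therefore called here by its rule, windows more accessible in cDC2s than in cDC1s, and not by a closed state.

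**Figure D1:**
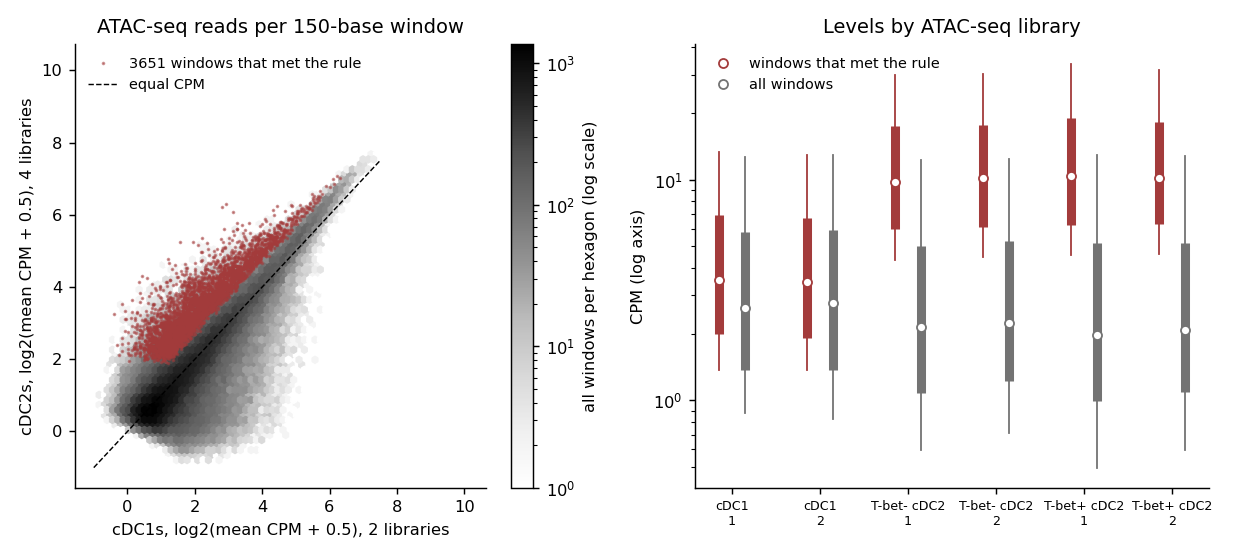
Left, each window's log2(mean CPM + 0.5) in cDC1s (2 libraries, x axis) and cDC2s (4 libraries, y axis), with all windows as grey hexagons shaded by number on a log scale, the 3651 chosen windows as red points and equal CPM as a dashed line. Right, CPM on a log axis per ATAC-seq library, as the median (circle), quartiles (thick bar) and 10th to 90th percentile (thin line), for chosen windows in red and all windows in grey, where the chosen windows' medians are 3.51 and 3.44 CPM in the cDC1 libraries, above the grey ones, and near 10 CPM in the cDC2 libraries used to choose them.

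The excess was graded. The ratio of the lowest cDC2 library to the higher cDC1 library had a median of 1.92 and quartiles of 1.65 and 2.49. It was between 1.5 and 2 in 2013 windows (55.1%), between 2 and 3 in 1100 (30.1%), and 3 or more in 538 (14.7%), of which 122 were at 5 or more and 15 at 10 or more. As means, cDC2s were 2.66 times cDC1s in the median window. In the chosen windows replicates of a subset differed by a median of 0.24 (cDC1s), 0.20 (T-bet+) and 0.18 (T-bet-) on the log2 scale. The rule leaves out windows in which a single library falls short, so this closeness was in part fixed by the choice. The subsets of cDC2s were close, as the rule requires. The T-bet+ mean was 1.05 times the T-bet- mean in the median window, with quartiles of 0.905 and 1.2, and was the higher in 2182 windows (59.8%).

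At the threshold there was no gap in the values. The last window inside had 6.59 CPM in its lowest cDC2 library against 4.39 in the higher cDC1 library, a ratio of 1.50015, and the first outside had 37.6 against 25, a ratio of 1.49999. The windows nearest the level limit were at 3.05 CPM inside and 2.99 outside, and the subsets nearest the limit on their difference at 1.499 and 1.501. With ratios of 1.5 to 1.6 there were 634 members, and 864 windows were kept out by a ratio of 1.4 to 1.5 alone. A further 1323 windows were kept out by the difference between cDC2 subsets alone, 956 of them higher in T-bet+ and 367 higher in T-bet- cells.

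The upstream window of Fam43a, a gene of little known function, was at 0.251 and 0.550 CPM in the cDC1 libraries, 10.2 and 11.0 in T-bet- and 11.8 and 11.1 in T-bet+ cDC2s. The ratio of its lowest cDC2 library to the higher cDC1 library was 18.5 (95% interval 6.97 to 69.5). Windows were ordered with cDC1s taken at no less than 3 reads. The interval is an exact conditional binomial one at 95% for counting error only, since reads carry no molecular identifiers. It is wide because the cDC1 libraries held 2 and 4 reads. The windows and libraries were picked by these same reads, so neither this interval nor that of Ankrd55 below covers the effect of the choice. Around Ankrd55, which encodes an ankyrin repeat protein, a pair of overlapping windows about 30 kb upstream was among the 10 with the highest ratios. The one printed above was at 0.376 and 0.138 CPM in cDC1s, 8.86 and 7.43 in T-bet- and 12.3 and 7.38 in T-bet+ cDC2s, a ratio of 19.6 (95% interval 6.45 to 97.2).

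The window upstream of Bhlhe40, a basic helix-loop-helix repressor, was at 0.627 and 0.275 CPM in cDC1s, 9.34 and 8.75 in T-bet- and 11.1 and 9.57 in T-bet+ cDC2s. It is the one of the 10 that holds PU.1, Runx and KLF letters together. The window of the Zeb2 desert, 118958 bases from the start of Zeb2, was at 0.878 and 0.688 CPM in cDC1s, 15.1 and 18 in T-bet- and 11.9 and 10.6 in T-bet+ cDC2s. Zeb2 encodes a zinc finger repressor that cDC2s and monocytes use, and the window is too far for the assignment to genes used here. A window on chromosome 18 (chr18:61074763-61074912), in an intron of Pdgfrb and 25761 bases upstream of the start of Csf1r, the receptor for macrophage colony stimulating factor, was at 1.00 and 0.688 CPM in cDC1s, 18.7 and 23.0 in T-bet- and 18.8 and 16.8 in T-bet+ cDC2s. In each of these windows every cDC2 library was above both cDC1 libraries, as the rule requires.

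The windows of Ctcfl and Samd13 were at 1.00 and 0.550 and at 1.88 and 1.79 CPM in cDC1s. In T-bet- cDC2s they were at 18.8 and 19.1 and at 30.9 and 24.1 CPM, and in T-bet+ cDC2s at 16.5 and 13.7 and at 21.7 and 22.5 CPM. Those of Ccdc186 and Rad51b were lower, at 8.86 and 8.34 and at 4.55 and 5.19 CPM in T-bet- cDC2s. Of the 10 windows with the highest ratios, 5 hold the C/EBP letters. At the other end of the level scale stood promoters that were open in every library. That of Dgcr8, a microRNA processing factor (chr16:18289259-18289408), was at 79.9 and 66.8 CPM in cDC1s, 142 and 124 in T-bet- and 135 and 136 in T-bet+ cDC2s. Those of Usf3, Rpl34 and Vkorc1l1 had ratios of 1.63, 1.56 and 1.71. These highly accessible members were therefore just inside the limit on the ratio.

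**Figure D2:**
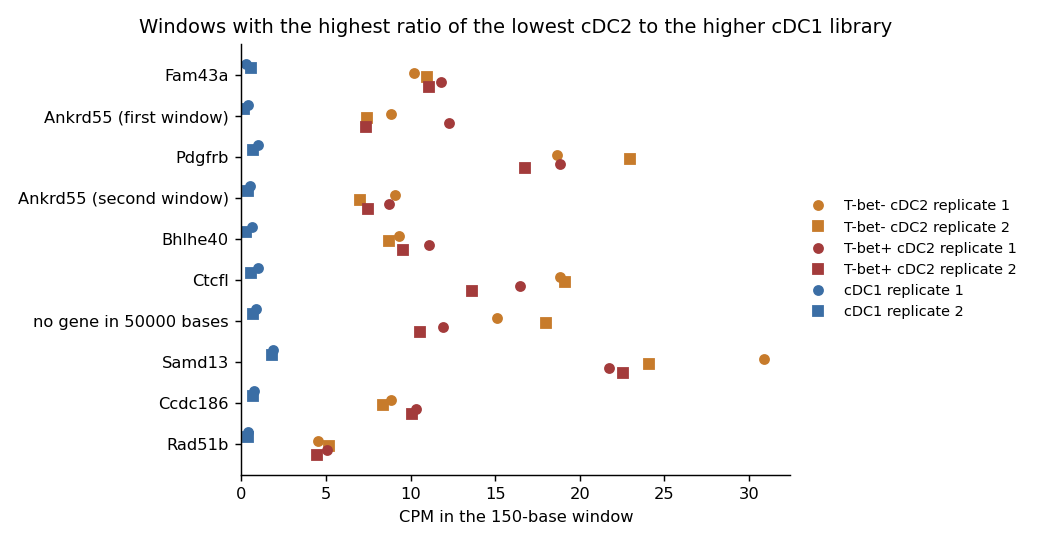
CPM (x axis) in each of the 6 ATAC-seq libraries for the 10 windows with the highest ratio of the lowest cDC2 to the higher cDC1 library, one row per window named by its gene, with circles for replicate 1 and squares for replicate 2. The cDC1 libraries (blue) lie at 1.88 CPM or less in every row, below all T-bet- (orange) and T-bet+ (red) libraries, as the rule requires.

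By position, 995 windows (27.3%) lay within 2000 bases of an annotated start, 1384 (37.9%) in introns, 1064 (29.1%) between genes and 112 in exons. Over all windows the shares were 29.7%, 34.4% and 27.7% for promoters, introns and intergenic DNA. An opposite rule asked for both cDC1 libraries at 3 CPM or more, the lower at least 1.5 times the highest cDC2 library. It set no limit on the difference between cDC2 subsets and asked a minimum level of fewer libraries. The sizes of the 2 sets are therefore not a like comparison. Among the 14492 windows that met the opposite rule, promoters were fewer (18.5%) and introns more frequent (44.3%). Promoter members were the more open and the less different, with a median of 12.8 CPM in cDC2s and a median ratio of 1.81, and 10.4% of them reached a ratio of 3. Intron members had medians of 9.66 CPM and 2.00, and 16.8% reached 3. The median GC content was 50.0% in members, 49.3% in all windows and 46.7% under the opposite rule. DNA masked as repeat over at least 50% of the window was found in 7.01% of members and 11.2% of all windows.

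Chromosome 11 held few of them. Of its 10604 windows 96 were members (0.905%), against 1.66% to 2.67% on the other autosomes. Under the opposite rule chromosome 11 had 7.88% of its windows, within the 7.18% to 9.86% of the other autosomes. Chromosome 11 took 6.08% and 6.17% of the window reads of cDC1s, 5.33% and 5.78% of T-bet- and 5.80% and 5.22% of T-bet+ cDC2s, so its share was lower in every cDC2 library. The cause was not tested.

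The sequences of the members were searched for 27 short motifs on both strands, and a match is a run of letters and not a site known to be bound. The share of all windows is given as it is and weighted to the members' GC content. Windows were not matched in level, and the median in cDC2s was 10.2 CPM in members and 2.16 CPM over all windows. The part of level in the motif shares was not tested. The letters of Rel, the NF-κB family that includes RELB, (GGGANTTTC) were in 2.88% of members, 0.892% of all windows and 0.928% after GC weighting. Runx letters (TGTGGTT), of the family of RUNX1 and RUNX3, were in 11.1% against 5.23% and 5.36%. AP-1 letters (TGANTCA), read by JUN, FOS and BATF factors, were in 16.6% against 7.90% and 8.08%. C/EBP letters (TTGCNNAA), of myeloid factors such as C/EBPα and C/EBPβ, were in 10.7% against 5.89% and 5.86%. KLF letters (CCACNCCC), which SP factors also read, were in 9.78% against 6.44% and 6.60%, and PU.1 letters (GAGGAAGT) in 9.53% against 5.50% and 5.82%. Of the 27 motifs, 9 were at least 1.25 times as frequent in members as in GC-weighted windows, and 6 were at 0.8 times or less.

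Other letters were scarcer in members. CAGGTG, the E-box that ZEB repressors read, was in 4.3% of members against 10.8% of all windows, and the T-box letters AGGTGTNA, which overlap it in part, in 0.931% against 1.92%. CTCF letters (AGGGGGC) were in 2.41% against 3.63%, and GATA letters (AGATAA) in 4.3% against 5.91%. The composite ETS-IRF letters (GGAANNGAA) and the IRF letters (GAAANNGAA), which can overlap each other, were in 5.89% and 4.79% of members, close to 6.80% and 5.61% of all windows. The opposite rule gave 15.8% and 11.5% for these, and 5.18% for Runx, 5.22% for C/EBP, 4.18% for KLF, 0.669% for Rel and 9.75% for PU.1. PU.1 letters were thus about as frequent in the windows of either direction. AP-1 letters were in 11.7% of windows of the opposite rule, against 16.6% of members and 7.90% of all windows, so they were in excess in both directions.

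Several shares moved with the size of the ratio. C/EBP letters were in 9.19%, 9.82% and 17.8% of members with ratios under 2, of 2 to 3 and of 3 or more. Nfil3 letters (TTANGTAA), a PAR basic leucine zipper motif that can overlap C/EBP, were in 1.49%, 1.91% and 3.35%. Rel went from 2.33% over 3.45% to 3.72% and Runx from 9.89% over 12.5% to 13.2%, while CAGGTG went from 5.22% over 3.82% to 1.86%. Away from promoters, Runx letters were in 12.0% of members and 5.88% of all windows, and at promoters in 8.84% and 3.69%, so the excess was found at both positions. These shares describe the chosen windows, and no test was made on them.

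**Figure D3:**
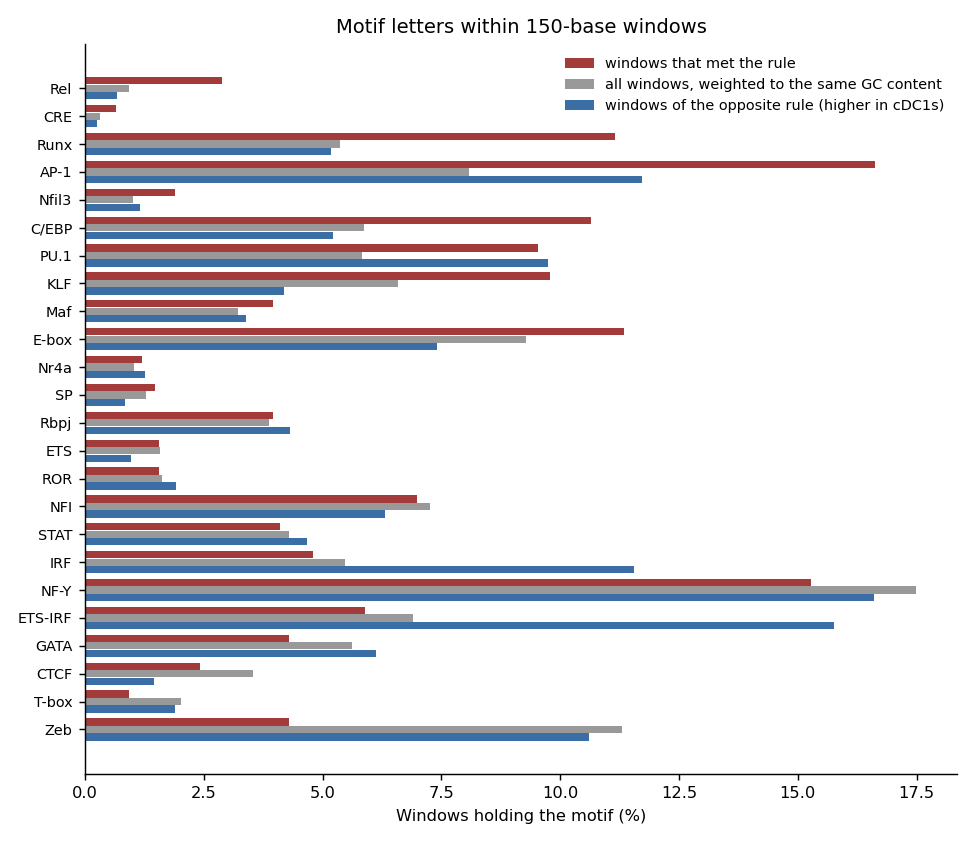
Share of windows with each motif's letters, in percent, for the chosen windows (red), all windows weighted to the same GC content (grey) and windows of the opposite rule (blue), for the motifs found in at least 20 chosen windows. Rel, Runx, AP-1 and C/EBP letters are more frequent in the chosen windows than in both others, and the Zeb letters CAGGTG less frequent.

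A peak can hold several windows. The members lay in 3113 peaks, of which 437 held 2 or more of them. The other 5581 windows of those peaks mostly leaned the same way, with both cDC2 subset means above the cDC1 mean in 3985 of them and a median cDC2 to cDC1 ratio of means of 1.44. Only 13 of them met the opposite rule. Counted over whole peaks, 1843 of the 3113 peaks (59.2%) met the rule, and in 3098 the cDC2 mean was above the cDC1 mean. Windows of a peak can share reads, whole peaks hold the members' own reads, and the same libraries chose the members. This likeness was therefore in large part fixed by the choice and is no separate evidence.

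Each window was assigned to the closest coding gene of GENCODE M21, within 50000 bases of its body. This placed 3145 members (86.1%) at 1965 genes, 1328 of them with 1 region, 410 with 2, 125 with 3 and 102 with 4 or more. The assignment is by distance and does not show which gene a region acts on. The RNA level of these genes was then compared between both cDC2 subsets together and cDC1s by edgeR's quasi-likelihood test, fitted across all genes of a tissue, with a threshold of 0.05 on the Benjamini-Hochberg adjusted p. In bulk RNA of sorted cells, fewer cells of a kind and less RNA per cell cannot be told apart.

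In the spleen, genes with a member were more often higher in cDC2s than genes at large. Of the 1739 tested, 426 (24.5%) were higher in cDC2s and 143 (8.22%) lower, and 1170 were not called. Over all 14377 genes tested 10.6% were called higher and 9.01% lower. Their median log2 fold change was 0.24, against -0.02 over all genes. Among the 8306 tested genes with a window but no member, 8.93% were higher and 11.3% lower, with a median of -0.10. Most genes with a more accessible region thus had no called difference in RNA. With the kind of library described above as a term, 537 were higher and 210 lower, against 13.9% and 12.7% of all genes.

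The shares moved with how many regions a gene had. With 1 region 19.8% of 1149 genes were higher, with 2 regions 31.6% of 377, with 3 regions 29.7% of 118, and with 4 or more 47.4% of 95, where the median log2 fold change was 1.2. Genes with more regions also had more windows of any kind, a median of 37 in the last group, 16 in genes with 1 region and 7 in genes with none, and the part of this in the shares was not tested. Genes that also had a window of the opposite rule were higher in 18.8% and lower in 11.9% of 944, and genes without one in 31.3% and 3.90% of 795. Of the 554 genes with a member within 2000 bases of their own start 31.2% were higher, and of the 1185 with members only farther away 21.4%. Across the 1739 genes the summed ratio of the members and the RNA log2 fold change had a Spearman's rho of 0.13, a description over genes that are not independent and share the libraries.

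In the MLN, where accessibility was not measured, 262 of 1747 genes with a member (15%) were higher in cDC2s and 67 (3.84%) lower, against 5.46% and 3.69% of all 15298 genes tested. With 4 or more regions 30.2% of 96 were higher, with a median log2 fold change of 0.66. The number of genes called rests on single libraries here, since leaving out each in turn gave 143 to 244 higher and 19 to 72 lower, the fewest without T-bet- replicate 1. With the kind of library as a term, 183 were higher and 47 lower, against 3.44% and 2.68% of all genes. Between the cDC2 subsets of the spleen, whose accessibility the rule holds alike, 47 genes with a member (2.70%) were higher in T-bet+ and 102 (5.87%) in T-bet- cells. Over all genes these shares were 1.95% and 3.44%. Leaving out each library gave 11 (without T-bet+ replicate 2) to 87 (without T-bet- replicate 3) and 36 to 137 genes. Without T-bet+ replicate 2, 0.625% of genes with a member and 0.629% of all genes were higher in T-bet+ cells. Without T-bet- replicate 3 these shares were 4.95% and 3.85%. The excess of the main fit on the T-bet+ side was thus not found in every fit.

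**Figure D4:**
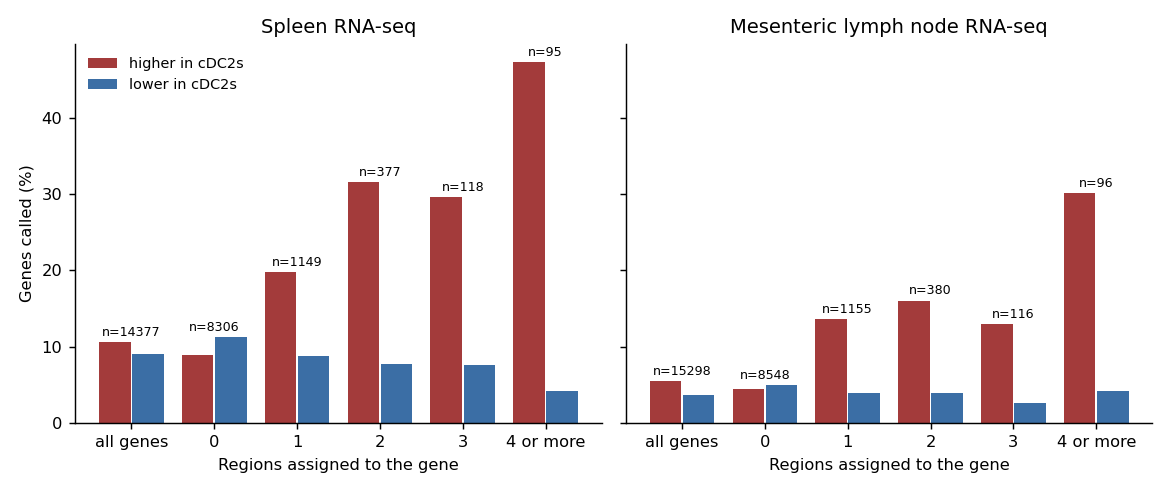
Share of genes called higher (red) or lower (blue) in cDC2s than in cDC1s, in percent, by the number of distinct member regions assigned to the gene (0 is a gene with windows but no member), in spleen and MLN, with the number tested above the bars. In spleen the share called higher is 10.6% over all genes and 47.4% with 4 or more regions.

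The genes with the most distinct member regions were Maml3, Ston2, Bach2, Foxp1 and Ier5. Of these, 3 also had windows of the opposite rule. Maml3 had 9 of them beside 14 members among 84 windows, and Bach2 8 beside 9 among 107. Foxp1 had more of them than members, 16 against 9 among 153 windows. Ston2 and Ier5 had 0. Maml3, a coactivator of Notch, had 12 regions, and the one with the highest ratio, in an intron (chr3:52090327-52090476), was at 1.76 and 1.24 CPM in cDC1s, 8.15 and 7.33 in T-bet- and 7.14 and 7.58 in T-bet+ cDC2s. Its RNA in spleen was 1.01, 1.10 and 0.792 normalized CPM in cDC1s, 7.31, 11.0 and 8.37 in T-bet- and 3.77, 8.37 and 7.21 in T-bet+ cDC2s, with no overlap of cDC1s and cDC2s, giving a log2 fold change of 2.96 ± 0.37 (SE) with adjusted p = 0.00043. In MLN the log2 fold change was 6.76 ± 0.85 (SE) with adjusted p = 0.0035, with cDC1 libraries at 0.0441 normalized CPM or less.

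Ston2, an adaptor of endocytosis, had 11 regions, with RNA in spleen at 3.81, 2.88 and 2.00 normalized CPM in cDC1s, 5.97, 4.21 and 18 in T-bet- and 32.8, 33.6 and 40.5 in T-bet+ cDC2s. The T-bet+ libraries were the highest, and the log2 fold change of cDC2s over cDC1s was 2.66 ± 0.50 (SE) with adjusted p = 0.0044. Foxp1, a forkhead repressor, had 9 regions and RNA at 28.8, 30.7 and 25.4 normalized CPM in cDC1s, 88.0, 76.3 and 94.8 in T-bet- and 67.9, 83.7 and 65.9 in T-bet+ cDC2s, giving a log2 fold change of 1.48 ± 0.19 (SE) with adjusted p = 0.00043 in spleen and 1.93 ± 0.25 (SE) with adjusted p = 0.0039 in MLN. Rasgrp1, which activates Ras downstream of antigen receptors, had 7 regions and RNA at 0.971, 3.08 and 0.606 normalized CPM in cDC1s, 26.8, 19.3 and 108 in T-bet- and 18.3, 19.0 and 19.4 in T-bet+ cDC2s, giving a log2 fold change of 4.32 ± 0.77 (SE) with adjusted p = 0.0033. T-bet- replicate 3 stood far above the other cDC2 libraries, and the groups did not overlap.

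Atrnl1, an attractin-like membrane protein, and Zfp608, a zinc finger protein, each with 8 regions, rose in spleen with log2 fold changes of 3.47 ± 0.43 (SE) with adjusted p = 0.00039 and 2.24 ± 0.57 (SE) with adjusted p = 0.022, and Zfp608 lost its call without cDC1 replicate 2. Bach2, a repressor of effector programs in lymphocytes with 9 regions, was in spleen at 0.388, 0.395 and 0.839 normalized CPM in cDC1s, 3.79, 3.32 and 4.56 in T-bet- and 1.9, 0.614 and 0.280 in T-bet+ cDC2s. One T-bet+ library lay below all cDC1 libraries, and the log2 fold change was 1.82 ± 0.63 (SE) with adjusted p = 0.073, past the threshold in MLN (log2 fold change 2.56 ± 0.60 SE, adjusted p = 0.037) and not in spleen. The MLN call was lost in 7 of 14 alternative fits and a spleen call gained in 2 of 15, and the difference between tissues did not pass the threshold (-0.71 ± 0.85 SE, adjusted p = 0.99). Of the remaining genes with 7 or more regions, Hpcal1, Ptpre, Stk24, Runx3 and Ier5 had no call in either tissue, though 7 of 16 alternative fits called Stk24 in spleen. Runx3, with 8 regions, was at 111, 89.8 and 17.3 normalized CPM in cDC1s, 44.6, 87.6 and 111 in T-bet- and 154, 120 and 124 in T-bet+ cDC2s. Ier5, an immediate early gene with 9, was at 648, 417 and 25.4 in cDC1s, 23.8, 45.9 and 371 in T-bet- and 557, 286 and 325 in T-bet+ cDC2s. Their lowest values were in the 3 libraries in which levels fell with GC content, named above. None of 16 alternative spleen fits called Runx3 or Ier5, the fit with the kind of library as a term among them. The part of the kind of library in the result was not tested further.

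**Figure D5:**
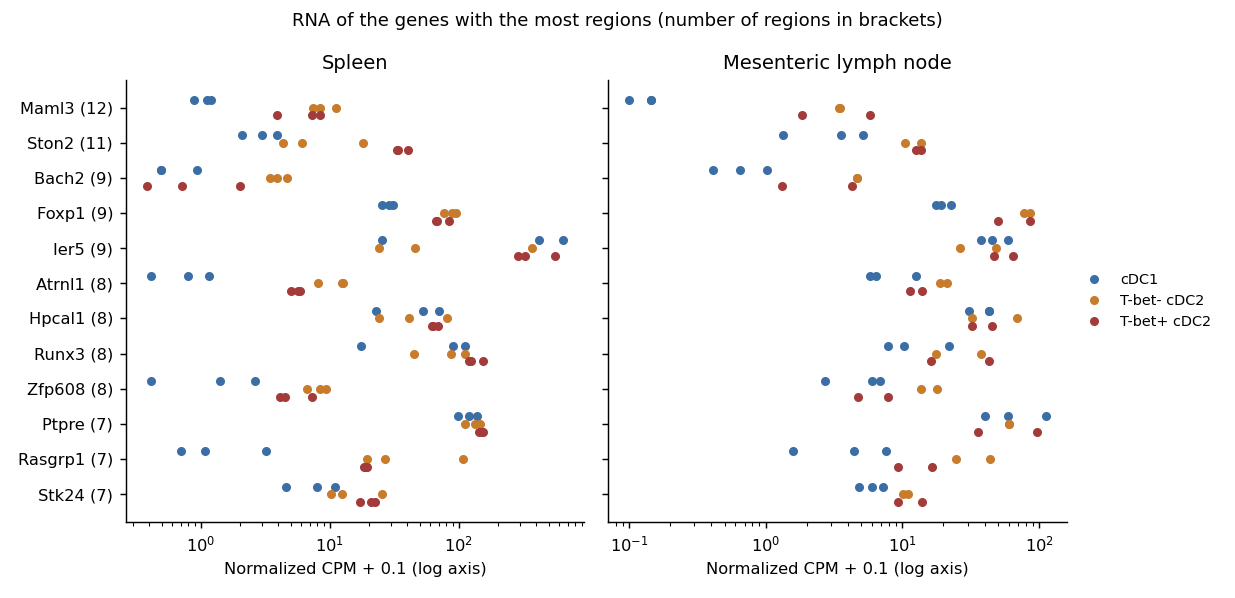
RNA of the 12 genes with 7 or more regions (number of regions in brackets), as normalized CPM + 0.1 on a log axis, one point per library, in spleen (left) and MLN (right), for cDC1s (blue), T-bet- cDC2s (orange) and T-bet+ cDC2s (red). The cDC1 points of Maml3 and Foxp1 lie apart from all cDC2 points in both tissues, and those of Ier5, Hpcal1, Runx3 and Ptpre overlap them.

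The member genes that differed most in RNA included several with no reads in cDC1s. Dkk2, a secreted inhibitor of Wnt signaling, had no read in any spleen cDC1 library and stood at 0.925, 0.991 and 2.39 normalized CPM in T-bet- and 11.0, 7.15 and 10.3 in T-bet+ cDC2s. This is at least 39.1-fold higher in cDC2s, taking 3 reads per cDC1 library as the limit. Gpr83, a G protein-coupled receptor, had none in cDC1s and was at 24.3, 31.2 and 22.7 in T-bet- and 0.685, 0.397 and 0.240 in T-bet+ cDC2s, at least 94.9-fold higher in cDC2s together. Its T-bet- libraries were all above its T-bet+ libraries. Tmem132c, a membrane protein, was at 0.231, 0.396 and 1.70 in T-bet- and 6.36, 6.71 and 5.73 in T-bet+ cDC2s, at least 25.2-fold higher.

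Sirpb1a, a signal regulatory protein of myeloid cells, was at 0.660, 0.0395 and 0.839 normalized CPM in cDC1s, 380, 350 and 273 in T-bet- and 239, 253 and 241 in T-bet+ cDC2s, giving a log2 fold change of 9.13 ± 0.69 (SE) with adjusted p = 1.9e-05. Close copies of this gene exist, so reads may be shared between them. Cadm3, a cell adhesion molecule, was at 0.0388, 0 and 0 in cDC1s, 4.72, 7.04 and 6.74 in T-bet- and 8.95, 6.14 and 9.29 in T-bet+ cDC2s, giving a log2 fold change of 8.56 ± 0.65 (SE) with adjusted p = 1.9e-05. The cDC1 and cDC2 libraries did not overlap for any of these genes, as their choice required. Their windows were modest, with ratios of 2.61 at Dkk2, 1.82 at Gpr83, 2.70 at Sirpb1a, 2.43 at Tmem132c and 3.37 at Cadm3.

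Other genes ran against their windows. Ppef2, a protein phosphatase, was at 6.95, 5.96 and 8.06 normalized CPM in spleen cDC1s and at 0.198 or less in every spleen cDC2 library, a log2 fold change of -7.30 ± 0.83 (SE) with adjusted p = 0.00024. Gpr33, a receptor of the chemoattractant family, was at 18.2, 21.2 and 25.2 in cDC1s, 0.185, 0.149 and 0.109 in T-bet- and 0, 0.650 and 0.0400 in T-bet+ cDC2s, giving a log2 fold change of -6.82 ± 0.74 (SE) with adjusted p = 0.00017. Its window upstream (chr12:52049442-52049591) was at 19.4 and 15.5 CPM in cDC1s, 33.2 and 40.0 in T-bet- and 45.7 and 44.3 in T-bet+ cDC2s, so DNA and RNA differed in opposite directions. Fgd6, an exchange factor for small GTPases, Itga8, the integrin α8 chain, and Nid2, a basement membrane protein, had log2 fold changes of -6.42 ± 0.87 (SE) with adjusted p = 0.00068, -5.73 ± 0.72 (SE) with adjusted p = 0.00043 and -5.33 ± 0.54 (SE) with adjusted p = 0.00012. Each of these 5 genes had 1 member region, and each also had at least 1 window of the opposite rule, 10 of them at Fgd6.

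Of 24 surface markers of cDC2s, 10 had a member window, and 9 of these 10 were higher in cDC2s in spleen RNA. Sirpa, the inhibitory receptor that defines cDC2s, had 4 regions and was at 8.12, 8.05 and 4.15 normalized CPM in cDC1s, 613, 722 and 1621 in T-bet- and 963, 836 and 786 in T-bet+ cDC2s, giving a log2 fold change of 7.09 ± 0.48 (SE) with adjusted p = 9.9e-06. Clec4a3, an inhibitory C-type lectin, was at 0.738, 0.868 and 0.792 in cDC1s, 342, 301 and 277 in T-bet- and 23.7, 30.8 and 32.9 in T-bet+ cDC2s, giving a log2 fold change of 6.88 ± 0.25 (SE) with adjusted p = 4.4e-07. Its RNA was lower in T-bet+ than in T-bet- cells (log2 fold change -3.40 ± 0.21 SE, adjusted p = 5.1e-05), while the printed window was at 17.4 and 17.1 CPM in T-bet- and 22.1 and 19.5 in T-bet+ cDC2s, against 1.51 and 3.03 in cDC1s. The rule keeps only windows in which the cDC2 subsets are close. Their likeness at this window, and at that of Cx3cr1 below, was therefore fixed by the choice.

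Csf1r and Cx3cr1, the fractalkine receptor, also had less RNA in T-bet+ than in T-bet- cells. Csf1r was at 26.2, 32.6 and 40.1 normalized CPM in cDC1s, 2926, 1812 and 2320 in T-bet- and 253, 198 and 229 in T-bet+ cDC2s, and Cx3cr1 at 1.24, 1.03 and 1.68 in cDC1s, 248, 154 and 249 in T-bet- and 8.03, 2.35 and 8.01 in T-bet+ cDC2s. The differences between subsets were log2 fold changes of -3.38 ± 0.25 (SE) with adjusted p = 0.00014 and -5.15 ± 0.51 (SE) with adjusted p = 0.00063, and the intron window at Cx3cr1 (chr9:120054956-120055105) was at 20.7 and 27.1 CPM in T-bet- and 32.3 and 23.9 in T-bet+ cDC2s. Itgam (CD11b), Cd4, Cd300a, Tlr5 and Tlr7 were higher in cDC2s as well, with log2 fold changes of 2.77 (Cd300a) to 8.14 (Tlr7). S1pr1, a receptor for egress from tissue, was lower, at 1.09, 0.671 and 4.94 normalized CPM in cDC1s, 2.36, 2.03 and 0.761 in T-bet- and 0.0381, 0 and 0 in T-bet+ cDC2s, with overlapping values and no call without cDC1 replicate 3. The lists were fixed with earlier results known, and over the whole list 19 of 23 tested markers were higher with or without a member, so the count says nothing particular of the windows.

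The macrophage markers Adgre1, Mertk, Vcam1, C1qa, C1qb and C1qc moved with these receptors. The sum of these 6 was 95.7 to 178 normalized CPM in spleen cDC1s, 958 to 1330 in T-bet- and 413 to 497 in T-bet+ cDC2s, and none of the 6 was under 1 CPM in all spleen libraries of cDC1s or of T-bet- cells, whereas Mertk was in T-bet+ cells. Other lists also differed in spleen. The 4 neutrophil markers summed to 10.9 to 14.0 normalized CPM in cDC1s, 32.9 to 50.9 in T-bet- and 35.9 to 48.5 in T-bet+ cDC2s, with Ly6g under 1 in every library. The 4 monocyte markers summed to 5.76 to 11.3 in cDC1s, 16.6 to 21 in T-bet- and 8.99 to 13.1 in T-bet+ cDC2s, with Vcan under 1 in every library. The 3 NK cell markers summed to 1.70 to 1.91, 56.9 to 68.2 and 105 to 120, with Ncr1 and Klrb1c under 1 throughout, so that nearly all of it was Klrd1. The 5 B cell markers summed to 39.0 to 75.3, 75 to 113 and 43.4 to 61.4, with Pax5 under 1 throughout, and the 3 CD3 genes of T cells were under 1 in every spleen library. The part of other cells in these results was not tested.

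Among 25 regulators of cDC2s 13 had a member, and 4 of these were higher and 1 lower in spleen cDC2s. Over the whole list 9 of 25 were higher and 2 lower, with or without a member. Zeb2 had 2 regions and was at 0.505, 0.592 and 3.68 normalized CPM in cDC1s, 318, 108 and 191 in T-bet- and 37.5, 54.6 and 53.7 in T-bet+ cDC2s, giving a log2 fold change of 5.99 ± 0.80 (SE) with adjusted p = 0.00062. Irf4, the interferon regulatory factor of cDC2s, was at 5.20, 13.3 and 14.0 in cDC1s, 149, 89.6 and 96.3 in T-bet- and 326, 416 and 237 in T-bet+ cDC2s, giving a log2 fold change of 4.14 ± 0.42 (SE) with adjusted p = 0.00011, with its window downstream (chr13:30769350-30769499) at 3.89 and 3.30 CPM in cDC1s, 9.34 and 11.8 in T-bet- and 11.1 and 12.5 in T-bet+ cDC2s. Prdm1, the repressor BLIMP1, and Tcf4, the E protein E2-2, rose with log2 fold changes of 4.22 ± 0.37 (SE) with adjusted p = 4.4e-05 and 1.49 ± 0.25 (SE) with adjusted p = 0.0022. The cDC1 and cDC2 libraries did not overlap for these 4 genes.

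Rbpj, the DNA-binding partner of Notch, had a more open promoter (chr5:53588983-53589132), at 28.7 and 29.6 CPM in cDC1s, 57.9 and 51.9 in T-bet- and 66.7 and 58.6 in T-bet+ cDC2s. Its RNA was lower in cDC2s, with a log2 fold change of -0.88 ± 0.23 (SE) with adjusted p = 0.023, a call that 5 alternative fits lost. The other 8 regulators had no call, among them Notch2 (log2 fold change -0.31 ± 0.32 SE, adjusted p = 0.57), Runx1 (log2 fold change -0.15 ± 0.46 SE, adjusted p = 0.86), Cebpa (log2 fold change -0.14 ± 0.64 SE, adjusted p = 0.91) and Nfil3 (log2 fold change 0.00 ± 0.64 SE, adjusted p = 1). Nfil3, Runx1 and Runx3 had their lowest cDC1 value in replicate 3 and their lowest T-bet- values in replicates 1 and 2, the libraries in which levels fell with GC content. In the Notch pathway, 6 of 11 genes had a member. Maml3 was higher, Rbpj and Maml2 were lower, and Notch1, Notch2 and Lfng were not called. Over the whole list 3 of 11 were higher and 2 lower.

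Of 23 lectins and pattern receptors 10 had a member, and 7 of those were higher in spleen cDC2s and none lower. They were Clec4a3, Clec4n (dectin-2), Tlr1, Tlr2, Tlr5, Tlr7 and Nod1. Tlr1, which pairs with TLR2 on lipoproteins, was at 4.08, 6.27 and 7.36 normalized CPM in cDC1s, 135, 76.5 and 119 in T-bet- and 66.0, 73.8 and 75.5 in T-bet+ cDC2s, giving a log2 fold change of 3.91 ± 0.30 (SE) with adjusted p = 2.2e-05. Nod1, a sensor of bacterial cell wall, was at 24.8, 31.8 and 29.5 in cDC1s, 44.0, 63.7 and 139 in T-bet- and 132, 145 and 156 in T-bet+ cDC2s, giving a log2 fold change of 1.92 ± 0.35 (SE) with adjusted p = 0.004. Tlr9, Tlr13 and Nod2 were not called. Over the whole list 18 of 23 were higher.

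All 4 of the Fc and paired receptors with a member were higher in spleen cDC2s, of 15 higher among the 18 tested in the list. They were Sirpa, Cd300a, Fcgr4, an activating Fc receptor, and Siglece, an inhibitory sialic acid receptor. Siglece was at 0.427, 0.671 and 1.4 normalized CPM in cDC1s, 74.3, 103 and 55.9 in T-bet- and 54.9, 50.3 and 47.8 in T-bet+ cDC2s, giving a log2 fold change of 6.25 ± 0.46 (SE) with adjusted p = 1.6e-05. Fcgr4 had 3 regions and a log2 fold change of 2.59 ± 0.31 (SE) with adjusted p = 0.00033. Of the chemokine and positioning receptors 5 of 14 had a member. Ccr1, Cxcr5 and Cx3cr1 were higher and S1pr1 lower, and over the whole list 8 of 14 were higher and 3 lower. Cxcr5, which guides cells to follicles, was at 0.466, 0.513 and 1.35 in cDC1s, 5.04, 3.62 and 4.35 in T-bet- and 6.02, 8.55 and 7.49 in T-bet+ cDC2s, giving a log2 fold change of 2.87 ± 0.44 (SE) with adjusted p = 0.0014.

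Among 17 cytokine receptors 6 had a member, 17 regions in all. Il1r2, the decoy receptor for interleukin-1, was at 53.3, 38.7 and 30.8 normalized CPM in cDC1s, 942, 800 and 285 in T-bet- and 1776, 1135 and 670 in T-bet+ cDC2s, giving a log2 fold change of 4.46 ± 0.51 (SE) with adjusted p = 0.00025. Tnfrsf1b, a TNF receptor with 5 regions, was at 254, 254 and 376 in cDC1s, 1283, 967 and 1108 in T-bet- and 883, 896 and 655 in T-bet+ cDC2s, giving a log2 fold change of 1.69 ± 0.21 (SE) with adjusted p = 0.00035. In MLN its libraries overlapped (log2 fold change 0.26 ± 0.50 SE, adjusted p = 0.8). Il4ra, the interleukin-4 receptor chain, also had 5 regions. It was higher in spleen cDC2s, with a log2 fold change of 0.68 ± 0.20 (SE) with adjusted p = 0.039, and lower in MLN cDC2s (log2 fold change -1.74 ± 0.41 SE, adjusted p = 0.038), where cDC1 libraries were at 625, 1711 and 1584 normalized CPM. Of the genes with a member 4 passed the test of the difference between tissues, against 0.113% of all 16795 genes. For Il4ra that difference did not pass the threshold (2.49 ± 0.47, adjusted p = 0.061), and the spleen call was lost in 10 and the MLN call in 7 alternative fits. Flt3 and Il13ra1 were not called in spleen, though 3 and 6 alternative fits called them. Over the whole list 5 of 17 were higher and 1 lower.

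Of 12 integrins and adhesion molecules 5 had a member. Itgam was higher and Cd9, a tetraspanin, lower in spleen cDC2s (log2 fold change -0.89 ± 0.16 SE, adjusted p = 0.0038), although the window upstream of Cd9 (chr6:125509919-125510068) was at 1.00 and 1.24 CPM in cDC1s, 9.10 and 11.7 in T-bet- and 10.1 and 6.88 in T-bet+ cDC2s. Cd44, Itga5 and Itgb7 were not called, though 5 alternative fits called Cd44. Over the whole list 3 of 12 were higher and 2 lower. Of 19 genes that mark cDC1s only Batf3, Btla and Cd36 had a member, and 18 of the 19 were lower in spleen cDC2s with or without one. Btla, an inhibitory receptor, was at 402, 626 and 755 normalized CPM in cDC1s, 81.8, 30.2 and 54.0 in T-bet- and 42.1, 54.2 and 40.2 in T-bet+ cDC2s, giving a log2 fold change of -3.57 ± 0.30 (SE) with adjusted p = 3.9e-05, and Cd36, a scavenger receptor, had one of -5.08 ± 0.43 (SE) with adjusted p = 3.8e-05. A window between genes next to Btla (chr16:45257709-45257858) was nonetheless at 1.76 and 2.61 CPM in cDC1s, 10.7 and 7.43 in T-bet- and 6.15 and 8.97 in T-bet+ cDC2s. Batf3 was not called (log2 fold change -0.46 ± 0.32 SE, adjusted p = 0.38).

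Of the genes next to the windows with the highest ratios, Bhlhe40 and Ankrd55 were higher in cDC2s. Bhlhe40 had 6 regions and was at 226, 221 and 244 normalized CPM in cDC1s, 1785, 1751 and 1392 in T-bet- and 1061, 1384 and 1252 in T-bet+ cDC2s, giving a log2 fold change of 2.63 ± 0.17 (SE) with adjusted p = 6.2e-06 in spleen and 2.42 ± 0.42 (SE) with adjusted p = 0.013 in MLN. Ankrd55 was at 0.505, 0.513 and 1.03 in cDC1s, 4.39, 3.86 and 4.24 in T-bet- and 4.42, 6.03 and 8.13 in T-bet+ cDC2s, giving a log2 fold change of 2.90 ± 0.40 (SE) with adjusted p = 0.00071. Fam43a was at 24.5, 29.7 and 5.22 in cDC1s, 9.62, 17.7 and 92.4 in T-bet- and 132, 138 and 129 in T-bet+ cDC2s, with overlapping groups and no call (log2 fold change 1.88 ± 0.76 SE, adjusted p = 0.12). Ctcfl and Samd13 were too low to test, at 0.297 normalized CPM or less in every library, and Ccdc186 and Rad51b were not called in spleen. Pdgfrb, a growth factor receptor, was at 0, 0 and 0.326 normalized CPM in cDC1s, 8.42, 6.29 and 6.52 in T-bet- and 1.07, 1.23 and 0 in T-bet+ cDC2s, with overlap between cDC1s and T-bet+ cells and a call (log2 fold change 4.46 ± 1.34 SE, adjusted p = 0.044) that 8 alternative fits lost. Of the 4 highly accessible promoters named above, Vkorc1l1, a vitamin K reductase, alone had a call, and it was lower in cDC2s (log2 fold change -2.42 ± 0.28 SE, adjusted p = 0.00025).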

How the data were processed

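The authors aligned RNA-seq reads to mm10 with HISAT2 2.1.0, kept unique reads and deposited unnormalized counts per gene (Rsubread, GENCODE vM17; strand setting not given in the sources used here, so overlapping genes may share reads). For ATAC-seq they used Bowtie2 2.2.5, shifted reads for the transposase, called peaks with MACS2 2.1.1.20160309 on all replicates together and deposited counts per summit window and per peak. The deposited score of the peak file is a constant 0, and the deposited -log10 p of the summits, so taken from its minimum, is 1 value per summit. Neither was used. The methods name RFP- cells as T-bet+ at 1 place, against the labels, which were followed.

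Window CPM used the sum over windows as library size. RNA genes were kept by filterByExpr, scaled by TMM (normalized CPM) and fitted with subset as the only term, all libraries of a tissue together, by edgeR 4.0.16 (glmQLFit, glmQLFTest, Benjamini-Hochberg), in R 4.3.3. Intervals are exact binomial. Positions and sequences came from GENCODE M21 and GRCm38. On simulated counts with 200 genes changed 8-fold, the spleen fit recovered 153 with 9 false calls, the MLN fit 148 with 9, and the fit of both tissues 119 with 2.

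Alternatives were DESeq2, its size factors, no filter, blocks, a stricter threshold, promoter members only, other rule settings and leaving out each library. Named were the 10 windows of highest ratio, the 5 of highest level, the 10 genes with the most regions and those tied with them, the 5 called genes of largest spleen fold in each direction (normalized counts averaging 50 or more, groups not overlapping), and genes of 9 lists with a member. The windows and lists were chosen with earlier results of these data known. Some genes that the rule names are not reported here, and 1 of them was left out of the summed macrophage markers.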

Additional observations from a re-analysis of the deposited data

Results flagged for a closer look

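Genes with a member window were looked at for a difference between spleen and MLN in the log2 fold change of cDC2s over cDC1s, by an interaction term fitted over all 16795 genes with edgeR's quasi-likelihood test. Of all genes 0.113% passed the adjusted threshold, and 4 of the 1803 with a member did, each with 1 member region.

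Adgrl3, an adhesion receptor of the latrophilin family, differed by -6.66 ± 0.62 (SE, adjusted p = 0.00055) as spleen minus MLN on the log2 scale. Its spleen levels were 17.3, 23.1 and 36.5 normalized CPM in cDC1s and 35.0 to 81.3 in cDC2s, while in MLN cDC1s were at 0.176, 0 and 0.146 and cDC2s at 12.7 to 63.4. It was called in 22 of 23 alternative fits. Pdcd1lg2, the checkpoint ligand PD-L2, differed by 4.98 ± 0.57 (adjusted p = 0.0026, called in 23 of 24). In spleen it was at 1.94, 1.18 and 3.08 normalized CPM in cDC1s and 31.7 to 40.2 in cDC2s, and in MLN at 54.3, 171 and 141 in cDC1s and 48.3 to 97.1 in cDC2s.

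Cd38, an ectoenzyme, differed by -2.92 ± 0.47 (adjusted p = 0.030, called in 12 of 24). Spleen cDC1s were at 110, 158 and 184 normalized CPM and cDC2s at 13.7 to 49.4, and MLN cDC1s were at 49.2, 30.0 and 30.6 and cDC2s at 14.5 to 152. Ceacam1, an adhesion molecule, differed by 2.91 ± 0.48 (adjusted p = 0.032, called in 11 of 24). Spleen cDC1s were at 2.17, 2.49 and 2.33 normalized CPM and cDC2s at 14.3 to 53.6, and MLN cDC1s were at 6.55, 18.9 and 18.6 and cDC2s at 12.9 to 34.8.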

How the results depend on the processing

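The number of windows depends on the rule: a fold of 2 gave 1638 (1567 regions) and whole peaks 2300 (2189 regions), and leaving out each library gave 4063 to 5726 (3909 to 5499 regions), more because fewer libraries had to pass. Values below are genes with a member called higher, then lower, in cDC2s. In spleen, main 426 and 143, promoter members only gave 173 and 45, an adjusted p under 0.01 gave 83 lower, and leaving out each library 317 to 409 and 94 (without cDC1 replicate 2) to 206. As shares, 17.9% to 30.9% were higher over the refits of the RNA model (all genes 5.65% to 13.9%). Promoter members gave 31.2% higher and 8.12% lower, against 10.6% and 9.01% of all genes in the main fit. In MLN, main 262 and 67, DESeq2 gave 134 lower, no filter 136 lower, an adjusted p under 0.01 118 and 19, promoter members 107 and 17, and leaving out each library 143 to 244 and 19 to 72, both fewest without T-bet- replicate 1. Over all genes DESeq2 called 7.84% lower and no filter 4.50% lower. Promoter members gave 19.4% and 3.08%, against 5.46% and 3.69% of all genes in the main fit. Leaving out each library called 2.28% to 5.18% of all genes higher and 1.12% to 3.85% lower. For T-bet+ over T-bet- cells, main 47 and 102, DESeq2 gave 95 and 184, no filter 121 and 154, an adjusted p under 0.01 9 and 32, promoter members 14 and 32. Leaving out each library gave 11 to 87 and 36 to 137, the most without T-bet- replicate 3. Over all genes DESeq2 called 4.17% higher and 6.38% lower, and no filter 2.36% and 2.40%. Promoter members gave 2.53% and 5.78%, against 1.95% and 3.44% of all genes in the main fit. The share of all genes at an adjusted p under 0.01 was not counted for any comparison. For the difference between tissues, main 4, DESeq2 gave 47, no filter 76, an adjusted p under 0.01 2, promoter members 1, and leaving out each library 2 to 34 (34 without MLN cDC1 replicate 1). Over all genes DESeq2 called 0.649% in the positive and 0.661% in the negative direction, and no filter 0.717% and 0.608%. The SP motif ratio was 1.15 with GC weighting and 0.825 without. The causes were not tested, apart from fewer genes or samples where the setting itself removes them.

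The labels number replicates, but no source says what a number shares, and not every same-numbered pair deviated together (r -0.488 to 0.17 over 9 spleen pairs and -0.0878 to 0.411 over 6 MLN pairs), so the numbers were not taken to pair the samples. By the number in the library name all 5 MLN pairs were positive (0.411, 0.339, 0.153, 0.0878 and 0.036), a hint of pairing in which 2 stayed under 0.1. With the number as a replicate block, spleen gave 336 and 108, T-bet+ over T-bet- 14 and 46, MLN 178 and 40, and the tissue difference 0 by edgeR, where without the block 1332 of all genes were under an unadjusted p of 0.05. Over all genes this block called 8.06% and 6.32% in spleen, 0.835% and 1.64% for T-bet+ over T-bet-, and 3.17% and 1.94% in MLN. With the number in the library name as a block, MLN gave 477 and 217 and the tissue difference 9. In MLN these were 27.3% and 12.4% of genes with a member, against 11.5% and 11.1% of all genes. For the tissue difference, 0.101% of all genes were called in the positive and 0.0714% in the negative direction.

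Of the named genes, 7 lost a spleen call and 18 an MLN call under at least 1 alternative, 10 gained a spleen and 18 an MLN call, and none reversed. Splits of genes by other windows and of motifs by ratio or position were chosen after seeing the data. With 2 ATAC-seq libraries per subset and a median of 25 to 28 reads per member in cDC1s, counting error limits the precision of each ratio.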

Other observations

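Some motif letters differed with position. The cyclic AMP response element TGACGTCA, which CREB and ATF factors read, was in 0.657% of chosen windows and 0.332% of all windows. It was in 1.11% of chosen windows at promoters and 0.489% elsewhere, against 0.612% and 0.214% of all windows there, and its share was 0.894%, 0.455% and 0.186% at ratios under 2, of 2 to 3 and of 3 or more. The SP letters GGGGCGGGG were in 4.12% of chosen promoters and 4.6% of all promoters, and went from 1.94% to 0.186% over the same ratios. Only 24 chosen windows held the cyclic AMP letters and 54 the SP letters. With 538 windows at ratios of 3 or more, the lowest shares rest on very few windows. The Rbpj letters TGGGAAA, read by the DNA-binding partner of Notch, were in 3.94% of chosen windows and 3.76% of all windows. The Egr letters GCGTGGGCG were in 0 of 3651 chosen windows, in 0.103% of all windows and in 0.069% after GC weighting, so they were rare in any case.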
